A study of Mus musculus with 6 samples.

Results

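The 41 genes described here encode ligands, receptors, Smad proteins, antagonists and targets of TGF-beta and bone morphogenetic protein (BMP) signalling. They were taken by gene symbol from a table of 24503 gene symbols, and all 41 were found in it. RNA was sequenced from primary neural stem cells of the mouse cortex at E13.5. KO cells (n = 3 libraries) carried Phf2flox/flox alleles with the Nestin-Cre transgene B6.Cg-Tg(Nes-cre)1Kln/J, which expresses the recombinase from a promoter active in neural progenitors. WT cells (n = 3) carried the same floxed alleles without Cre, so neither group had unmodified Phf2 alleles. All cells were enriched as neurospheres and then expanded on laminin with FGF at 10 ng/mL and EGF at 20 ng/mL. No BMP or TGF-beta treatment is given in the labels, and whether embryos were pooled or cultures were separate is not stated there.

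Ligands of the TGF-beta superfamily bind pairs of type I and type II receptor kinases on the cell surface. BMP receptors phosphorylate Smad1, Smad5 and Smad9, and TGF-beta and activin receptors phosphorylate Smad2 and Smad3. The phosphorylated Smads join Smad4 and enter the nucleus, where the Id genes are classic targets of the BMP branch and Smad6 and Smad7 are feedback inhibitors. In embryonic neural progenitors, BMP signals are known to act on proliferation, on astroglial differentiation and on dorsal patterning, and secreted antagonists such as noggin limit them.

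Libraries held 33413444 to 46890314 counts. Phf2, the deleted gene, had 56.3, 48.1 and 48.8 CPM (counts relative to library size after TMM scaling) in KO 1, 2 and 3, against 109, 90.4 and 77.8 CPM in WT 1, 2 and 3, without overlap between the groups. The labels do not say which exons the floxed alleles remove, so the remaining reads do not measure intact transcript. Markers of neural stem cells were abundant (10 genes, 9848 to 11517 summed CPM in KO and 9867 to 11561 CPM in WT). Oligodendrocyte lineage markers were high as well (8 genes, 3320.5 to 3545 summed CPM in KO and 3430 to 4133 CPM in WT). Mesenchymal markers summed to 40.2 to 65.4 CPM in KO and 35.6 to 46.6 CPM in WT with Dcn at 0 (8 genes). Most of that sum was Foxc1 (38.4 to 63.8 CPM in KO and 32.5 to 45.0 CPM in WT). Col1a1, Col1a2, Col3a1, Lum, Twist1 and Pdgfrb each had at most 1.23 CPM in any library. Neuronal markers summed to 635 to 765 CPM in KO and 548 to 766 CPM in WT (8 genes). Most of the neuronal sum was Map2 (568 to 734 CPM in KO and 448 to 710 CPM in WT). Endothelial markers summed to at most 2.02 CPM in KO and 2.07 CPM in WT with Cdh5 at 0 (5 genes), microglial markers to at most 0.0595 CPM in KO and 0.0870 CPM in WT with Aif1, Ptprc and C1qa at 0 (5 genes), and choroid plexus markers to at most 0.832 CPM in KO and 0.339 CPM in WT with Folr1 at 0 (4 genes). Astrocyte markers summed to 62.6 to 154 CPM in KO and 162 to 408 CPM in WT (6 genes). That the sums did not overlap rested on Aldh1l1 (35.8 to 41.0 CPM in KO and 106 to 199 CPM in WT). The sum of the other 5 genes, chosen after the values were seen, was 26.8, 113 and 114 CPM in KO 1, 2 and 3, against 55.7, 216 and 209 CPM in WT 1, 2 and 3, and overlapped. The libraries numbered 1 stood apart from numbers 2 and 3 in both genotypes, with 57.6% of 13683 tested genes called between them. The labels do not set number 1 apart, and this split was made with earlier results of these data known, so its calls are descriptive. Of the 6 pairs of libraries within a group, KO 2 and KO 3 were the most alike. The median chi-square per gene, a measure of difference relative to counting error, was 1.02 for KO 2 and KO 3. It was 5.25 for WT 2 and WT 3 and 22.6 to 34.5 for pairs with number 1. The labels do not say whether KO 2 and KO 3 came from separate cultures, so n = 3 may overstate the independent KO samples. In bulk RNA, fewer cells of a type and less RNA per cell cannot be told apart.

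Of the 41 members, 37 had enough counts to be tested between KO and WT. Without the replicate number in the fit, 0 of the 37 were called, where a call is a Benjamini-Hochberg adjusted p under 0.05 over all tested genes in edgeR. In that fit 0.0585% of all tested genes were called, 0.0292% higher and 0.0292% lower. Phf2, the deleted gene, was itself not called there (log2 fold change −0.85, adjusted p = 0.182, edgeR). At an unadjusted p under 0.05 the fit without the block held 1 of the 37 members (Eng), against 795 of the 13683 tested genes (5.81%). DESeq2 without the block called 0 members, against 64 of the 13683 tested genes higher and 198 lower. With the replicate number as a block, 2 members rose (Tgfbr2 and Smad5) and 4 fell (Id2, Smad7, Nog and Eng). These were 5.41% and 10.8% of the tested members, against 3.33% and 6.46% of all tested genes called higher and lower (9.79% in either direction). Phf2 was called lower with the block (log2 fold change −0.84, adjusted p = 0.000123, edgeR). DESeq2 with the block called Tgfbr2 and Smad5 higher and Id2 and Nog lower, against 3.75% and 5.42% of all tested genes (9.17% in all). With numbers 2 and 3 alone, edgeR called Tgfbr2 higher and Id2 lower, against 1.82% and 3.57% of all tested genes (5.4% in all). With KO 2 and KO 3 summed and number 1 as the block, it called Tgfbr2 higher and Id2 and Nog lower, against 1.13% and 3.8% of all tested genes (4.94% in all). The median log2 fold change of the 37 members was −0.044 with the block, against 0.007 over all tested genes.

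**Figure D1:**
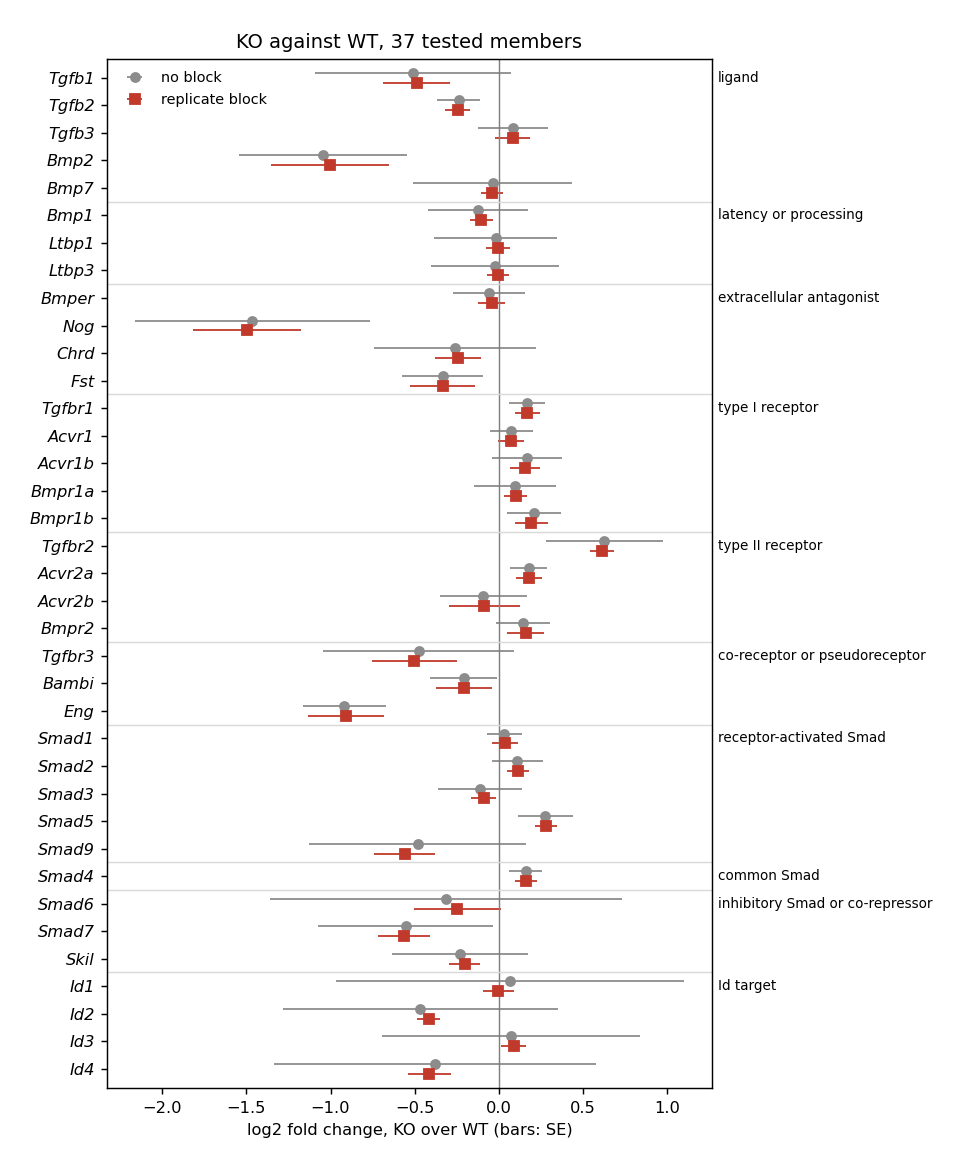
Log2 fold change of KO over WT for the 37 tested members, by role, with SE bars, in the fit without a block (grey circles) and with the replicate number as a block (red squares). The point values nearly coincide between the fits (Tgfbr2 is 0.62 without and 0.61 with the block), while the SE is smaller with the block (0.348 and 0.0715 for Tgfbr2).

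Among the ligands, Bmp7 RNA had the highest level per length, Tgfb2 the next and Tgfb3 the third, and 0 of the 5 ligands with enough counts to be tested were called between KO and WT in edgeR with or without the block. Per kilobase of exon, Bmp7 averaged 13.0 ± 6.79 CPM in KO and 13.4 ± 6.92 CPM in WT (SD, n = 3 each). Bmp7 encodes a BMP that signals through Smad1, Smad5 and Smad9. Its CPM was 83.9, 37.2 and 36.0 in KO 1, 2 and 3, against 85.8, 38.9 and 36.5 in WT 1, 2 and 3. The number 1 libraries were the high ones in both groups, and the groups overlapped. The log2 fold change was −0.04 ± 0.0661 (SE) with the block.

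Tgfb2 had 28.9, 35.8 and 36.6 CPM in KO, against 37.9, 40.2 and 41.6 CPM in WT. The groups did not overlap, but the difference of −0.25 ± 0.0768 (log2, SE) did not pass, with adjusted p = 0.0756 in edgeR with the block. Tgfb2 was called with upper-quartile scaling and the block (adjusted p = 0.0499, edgeR) and with the block and without number 3 of both groups (adjusted p = 0.0386, edgeR), at −0.28 in each. Tgfb1 averaged 1.95 ± 0.971 CPM in KO and 2.78 ± 1.504 CPM in WT, and Tgfb3 averaged 11.6 ± 2.23 CPM in KO and 10.9 ± 1.85 CPM in WT (SD, n = 3 each). Bmp2 was near the detection limit, with 11, 18 and 13 counts in KO 1, 2 and 3 and 18, 49 and 30 counts in WT 1, 2 and 3. The remaining 3 ligands were too low to test. Bmp4 had 0 counts in every KO library and 0, 7 and 4 counts in WT 1, 2 and 3. Inhba, which encodes an activin subunit, had 0 counts in every KO library and 2, 4 and 2 in WT. Bmp6 had 1 count in WT 1 and 0 elsewhere. A count of 0 allows up to 3 counts, or 0.0640 to 0.0898 CPM per library.

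**Figure D2:**
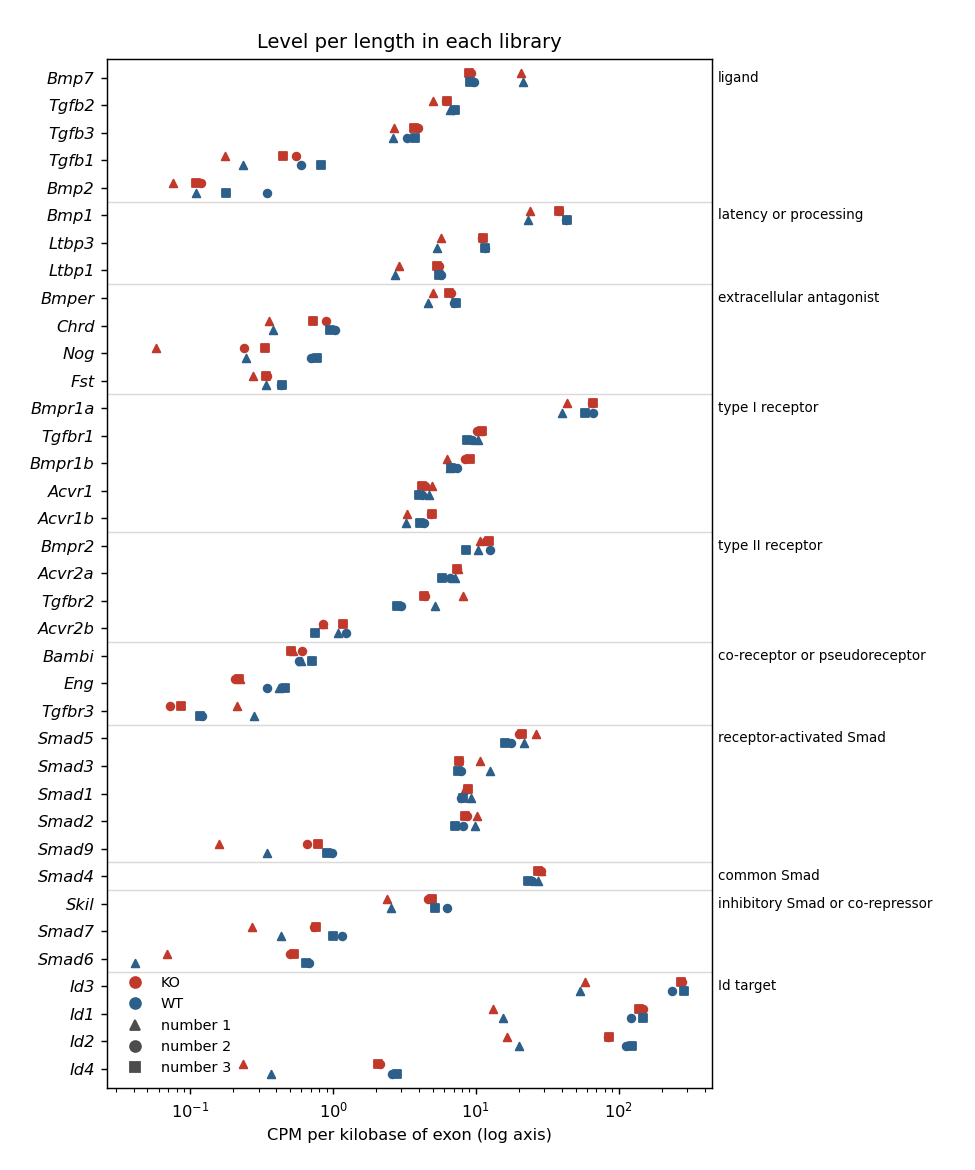
Level per length (CPM per kilobase of exon, log axis) of the 37 tested members in each KO (red) and WT (blue) library, with the marker shape giving the replicate number; Bmp4, Bmp6, Inhba and Grem1, which were not tested, are left out. Id3, Id1, Id2 and Bmpr1a have the highest means, and the triangles of number 1 stand left of the other libraries for all 4 Id genes.

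The genes for proteins that store and process these ligands were not called between KO and WT. Ltbp1 and Ltbp3 encode latent TGF-beta binding proteins, and Bmp1 encodes a metalloprotease that cleaves procollagens and the antagonist chordin. Bmp1 averaged 33.4 ± 8.29 CPM per kilobase in KO and 36.4 ± 11.5 in WT (SD, n = 3 each), the highest level in this role. Its CPM was 211, 340 and 337 in KO 1, 2 and 3, against 206, 378 and 386 in WT 1, 2 and 3, with number 1 low in both groups. The blocked log2 fold changes were −0.10 ± 0.0684 for Bmp1, −0.01 ± 0.0691 for Ltbp1 and −0.01 ± 0.0648 for Ltbp3 (SE).

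The antagonist Nog was lower in KO, and the other extracellular antagonists were not called. Nog (chromosome 11, 89300638 to 89302332, minus strand, GRCm38) encodes noggin, which binds BMPs and blocks their access to receptors. Nog had 4, 17 and 19 counts in KO 1, 2 and 3, against 19, 48 and 62 counts in WT 1, 2 and 3. These are 0.0973, 0.401 and 0.565 CPM in KO and 0.413, 1.19 and 1.31 CPM in WT. Each KO library was lower than the WT library of the same number, and the groups overlapped because KO 3 lay above WT 1. Nog fell by 1.496 ± 0.323 on the log2 scale (SE, adjusted p = 0.0168, edgeR with the block), and without the block the value was −1.46 ± 0.699 (adjusted p = 0.991, edgeR). All 8 fits with a block called Nog, with log2 fold changes from −1.71 to −1.38, and 0 of 13 fits without one did.

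Bmper, a secreted BMP-binding protein, had the highest level per length of the antagonists. Bmper had 24.2, 32.3 and 31.4 CPM in KO, against 22.4, 34.0 and 35.049 CPM in WT, and the groups overlapped. Chordin (Chrd) averaged 4.10 ± 1.70 CPM in KO and 4.91 ± 2.21 CPM in WT, and follistatin (Fst), which binds activins, averaged 1.46 ± 0.173 CPM in KO and 1.85 ± 0.263 CPM in WT (SD, n = 3 each). Neither was called. Chrd overlaps Thpo on the opposite strand, as do Tgfb3 and Ttll5, and Acvr2a and Orc4, and no source used here says whether the counting used strand. Grem1 had 0 counts in all 6 libraries.

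The type II receptor gene Tgfbr2 was higher in KO than in the WT library of the same number in all 3 pairs, and the other receptor kinases were not called. Tgfbr2 (chromosome 9, 116084293 to 116175360, minus strand, GRCm38) encodes the kinase that binds TGF-beta ligands and recruits the type I receptor. Its CPM was 66.8, 35.9 and 35.2 in KO 1, 2 and 3, against 42.0, 24.3 and 23.1 in WT 1, 2 and 3. Both number 1 libraries were high, and the groups overlapped because WT 1 lay above KO 2 and KO 3. The log2 ratio of KO over WT was 0.67, 0.56 and 0.61 within numbers 1, 2 and 3. Tgfbr2 rose by 0.61 ± 0.0715 (log2, SE) with adjusted p = 0.000585 in edgeR with the block, while without the block the value was 0.62 ± 0.348 with adjusted p = 0.999 in edgeR. It was called in all 8 fits with a block and in 1 of 14 without one, that of numbers 2 and 3 alone. The promoter of Tgfbr2 is shown because the gene had the lowest p among the members in edgeR with the block. The sequence is from RefSeq (GRCm38.p6, chr9:116175314-116175613, minus strand, 250 bases before to 50 after the gene's start). Capitals mark CAGAC or its reverse complement GTCTG, the Smad box, which occurs once here and in 49.6% of all 32851 promoter windows of the same length.
Tgfbr2: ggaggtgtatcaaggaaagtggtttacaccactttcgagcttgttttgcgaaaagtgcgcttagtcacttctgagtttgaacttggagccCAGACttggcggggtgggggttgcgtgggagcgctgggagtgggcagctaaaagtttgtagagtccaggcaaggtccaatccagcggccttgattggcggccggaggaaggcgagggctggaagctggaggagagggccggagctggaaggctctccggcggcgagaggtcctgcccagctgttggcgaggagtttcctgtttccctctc

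Type I receptors were led by Bmpr1a, which encodes a BMP receptor kinase. Bmpr1a averaged 58.3 ± 13.0 CPM per kilobase in KO and 54.7 ± 13.4 in WT (SD, n = 3 each). The next type I receptor, Tgfbr1, averaged 10.6 ± 0.372 CPM per kilobase in KO and 9.47 ± 0.869 in WT. In each of the 6 libraries Bmpr1a was the most abundant receptor of either type per length. Bmpr1a had 275, 413 and 423 CPM in KO 1, 2 and 3, against 253, 420 and 368 CPM in WT 1, 2 and 3, with number 1 low in both groups and the groups overlapping. The 5 type I receptors had blocked log2 fold changes above 0, from 0.07 ± 0.0775 for Acvr1 to 0.19 ± 0.0957 for Bmpr1b (SE), and 0 of the 5 were called.

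The other type II receptors were Bmpr2, Acvr2a and Acvr2b. Bmpr2, the BMP type II receptor and the type II gene with the highest level per length, had 193, 212 and 222 CPM in KO, against 187, 228 and 153 CPM in WT. WT 3 was the lowest library and the groups overlapped. Acvr2a, an activin receptor, had 42.3, 41.8 and 41.7 CPM in KO, against 40.6, 37.8 and 33.0 CPM in WT. It was the 1 tested member whose KO libraries all lay above the WT libraries, as did 4.49% of all tested genes, and its blocked log2 fold change of 0.18 ± 0.0782 (SE) had adjusted p = 0.196 in edgeR. Acvr2b ranged from 3.32 to 4.58 CPM in KO and from 2.95 to 4.83 CPM in WT.

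Eng was lower in KO, and the co-receptor Tgfbr3 and the pseudoreceptor Bambi were not called. Eng (chromosome 2, 32646595 to 32682669, plus strand, GRCm38) encodes endoglin, a TGF-beta co-receptor best known from endothelium. Eng had 37, 35 and 30 counts in KO 1, 2 and 3, against 78, 56 and 88 counts in WT 1, 2 and 3. In CPM it was 0.900, 0.825 and 0.892 in KO, against 1.70, 1.39 and 1.86 in WT. The groups did not overlap, number 1 did not stand apart, and 6.71% of all tested genes had their KO libraries all below the WT libraries; Tgfb2 was the other tested member that did. Eng fell by 0.91 ± 0.224 on the log2 scale (SE, adjusted p = 0.0315, edgeR with the block), and without the block the value was −0.92 ± 0.245 (adjusted p = 0.416, edgeR). It was called in 4 of 8 fits with a block, with adjusted p up to 0.112 (edgeR or DESeq2). Without number 1 or without number 3 of both groups, with KO 2 and KO 3 summed and in DESeq2 it was not called. The endothelial marker Cdh5 had 0 counts in all 6 libraries and Kdr averaged 1.21 CPM in KO and 1.13 CPM in WT. Eng overlaps Fpgs on the opposite strand. Per length, Bambi, which encodes a receptor-like protein without a kinase, was the highest of these 3 genes. Bambi had 2.65, 3.06 and 2.56 CPM in KO, against 3.04, 2.93 and 3.60 CPM in WT, with overlap.

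**Figure D3:**
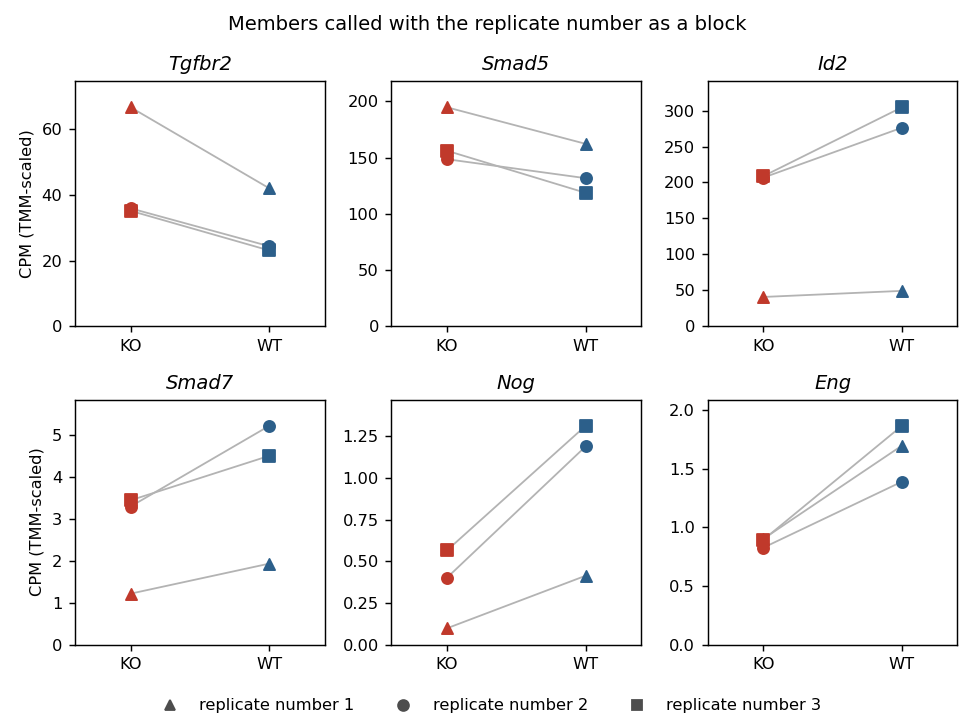
CPM (TMM-scaled, axis from 0) of the 6 members called with the replicate block, with KO (red) at the left and WT (blue) at the right of each panel and a grey line joining libraries of the same number. All 3 lines slope the same way in each panel, and number 1 (triangles) lies apart from 2 and 3 for Tgfbr2, Smad5, Id2 and Smad7.

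Of the Smads that receptors activate, Smad5 was higher in KO and the TGF-beta Smads Smad2 and Smad3 were not called. Smad5 (chromosome 13, 56703010 to 56742377, plus strand, GRCm38), which carries BMP signals, had the highest level per length of this role, at 22.4 ± 3.34 CPM per kilobase in KO and 18.5 ± 3.02 in WT (SD, n = 3 each). Its CPM was 195, 149 and 156 in KO 1, 2 and 3, against 162, 132 and 119 in WT 1, 2 and 3. Each KO library was above the WT library of its number, and the groups overlapped through WT 1. Smad5 rose by 0.28 ± 0.0655 (log2, SE) with adjusted p = 0.0259 in edgeR with the block, and without the block the value was 0.28 ± 0.163 with adjusted p = 0.999 in edgeR. It was called in 6 of 8 fits with a block and in 0 of 14 without one. The call was lost without number 1 of both groups and with KO 2 and KO 3 summed, and its adjusted p over the 8 fits reached 0.117 (edgeR or DESeq2).

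The other Smads of this role were not called in edgeR with the block. Smad1, which carries BMP signals, averaged 53.8 ± 1.30 CPM in KO and 52.6 ± 4.31 CPM in WT (SD, n = 3 each). Smad9, the third BMP Smad, had 0.851, 3.54 and 4.19 CPM in KO, against 1.85, 5.26 and 4.87 CPM in WT. Number 1 was low in both groups, the groups overlapped, and the blocked value of −0.56 ± 0.181 (log2, SE) had adjusted p = 0.0843 in edgeR. Smad2 had a blocked log2 fold change of 0.11 ± 0.0661 and Smad3 one of −0.09 ± 0.0752 (SE). Smad4, the partner of all receptor-activated Smads, had 105, 106 and 101 CPM in KO, against 102, 92.4 and 86.1 CPM in WT. KO 3 lay just below WT 1, so the groups overlapped, and Smad4 had adjusted p = 0.169 in edgeR with the block.

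Among the intracellular inhibitors, Smad7 was lower in KO in each pair, while Smad6 and Skil were not called. Smad7 encodes an inhibitory Smad induced by both branches of the pathway. Smad7 had 50, 140 and 116 counts in KO 1, 2 and 3, against 89, 211 and 213 counts in WT 1, 2 and 3. In CPM it was 1.22, 3.30 and 3.45 in KO, against 1.94, 5.23 and 4.51 in WT. Number 1 was low in both groups, and the groups overlapped. Smad7 fell by 0.56 ± 0.153 on the log2 scale (SE, adjusted p = 0.0457, edgeR with the block). Without the block the value was −0.55 ± 0.520 (adjusted p = 0.999, edgeR). Of the 8 fits with a block, 3 called Smad7, and the adjusted p over all 8 reached 0.218 (edgeR or DESeq2). Smad7 was not called in DESeq2 with the block, without any 1 of the numbers, or with KO 2 and KO 3 summed.

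Smad6, the BMP-selective inhibitory Smad, had 9, 68 and 57 counts in KO 1, 2 and 3, against 6, 87 and 98 counts in WT 1, 2 and 3. Its 2 lowest libraries were both number 1, and its blocked log2 fold change was −0.25 ± 0.256 (SE, adjusted p = 0.618, edgeR). Skil encodes SnoN, a co-repressor that binds Smads, and had the highest level per length of these 3 genes. Skil had 23.0, 44.5 and 48.0 CPM in KO, against 24.6, 60.9 and 49.9 CPM in WT, with overlap and a blocked log2 fold change of −0.20 ± 0.0899 (SE, adjusted p = 0.202, edgeR).

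The Id genes encode inhibitors of basic helix-loop-helix transcription factors. Id2 was lower in KO than in WT, while Id1 and Id3 were not called and had blocked values near 0. Id2 (chromosome 12, 25093799 to 25097140, minus strand, GRCm38) had 40.5, 207 and 209 CPM in KO 1, 2 and 3, against 49.0, 276 and 305 CPM in WT 1, 2 and 3. Each KO library was below the WT library of its number, number 1 was low in both groups, and the groups overlapped. Id2 fell by 0.42 ± 0.0689 on the log2 scale (SE, adjusted p = 0.00433, edgeR with the block), and without the block the value was −0.47 ± 0.817 (adjusted p = 0.999, edgeR). All 8 fits with a block called Id2, with log2 fold changes from −0.48 to −0.35, and 1 of 14 without one did, that of numbers 2 and 3 alone.

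Id1 had 15.3, 172 and 161 CPM in KO 1, 2 and 3, against 18.003, 142 and 173 CPM in WT 1, 2 and 3. Its groups overlapped, and the blocked log2 fold change was −0.004 ± 0.0926 (SE, adjusted p = 0.985, edgeR), against 0.07 without the block. Id3, the Id gene with the highest level per length, had 103, 499 and 490 CPM in KO, against 95.8, 427 and 517 CPM in WT. Its groups overlapped too, with a blocked log2 fold change of 0.09 ± 0.0731 (SE, adjusted p = 0.528, edgeR). Id4 had 0.900, 8.13 and 7.97 CPM in KO, against 1.41, 9.94 and 10.8 CPM in WT. It was lower in KO in each pair, but its blocked value of −0.41 ± 0.128 (log2, SE) did not pass, with adjusted p = 0.0735 in edgeR. Id4 overlaps A330033J07Rik on the opposite strand.

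As a share of the summed CPM of the 4 Id genes, a measure chosen after the values were seen, Id2 made up 25.3%, 23.3% and 24.0% in KO 1, 2 and 3, against 29.8%, 32.3% and 30.3% in WT 1, 2 and 3. Every KO library had a smaller Id2 share than any WT library, and number 1 did not stand apart in this share. The sum itself was 160, 886 and 868 CPM in KO, against 164, 855 and 1005 CPM in WT.

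Beside these BMP target genes, 3 of 5 tested astrocyte markers fell with the block (Aldh1l1, Gfap and Slc1a2) and 0 rose, while Aqp4 and S100b were not called. Of 7 tested oligodendrocyte lineage markers, Nkx2-2 and Sox10 fell and Pdgfra rose. Of 6 tested neuronal markers, Syt1 and Stmn2 fell and 0 rose. Of 5 tested mesenchymal markers, Col1a2 fell and Twist1 and Foxc1 rose. Of 10 neural stem cell markers, Prom1 fell and Hes5 rose. Over all tested genes, 3.33% were called higher and 6.46% lower with the block. Without the block, edgeR called Nkx2-2 alone of these markers (lower, adjusted p = 0.0316). The part of these markers in the changes of Id2, Smad7 and Nog was not tested.

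The replicate number separated the BMP target genes far more than the genotype did. Id1, Id2, Id3 and Id4 were all lower in both number 1 libraries than in the other 4 libraries, and so were Smad6, Smad7 and Smad9. The log2 difference of number 1 over numbers 2 and 3, fitted together with the genotype, was −3.28 ± 0.118 for Id1, −2.46 ± 0.0781 for Id2, −2.28 ± 0.0887 for Id3 and −2.99 ± 0.142 for Id4 (SE, adjusted p from 4.29e-07 to 1.33e-06, edgeR). It was −3.42 ± 0.316 for Smad6, −1.39 ± 0.155 for Smad7 and −1.75 ± 0.199 for Smad9 (SE, adjusted p from 3.60e-05 to 0.000112, edgeR). The BMP target Atoh8 had 0.560, 5.21 and 5.71 CPM in KO 1, 2 and 3, against 0.674, 5.38 and 5.76 CPM in WT 1, 2 and 3. What the number marks is not given in the labels, and cultures, days and sequencing cannot be told apart. Because number 1 was set against numbers 2 and 3 with earlier results of these data known, these p-values describe the split and do not test it.

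**Figure D4:**
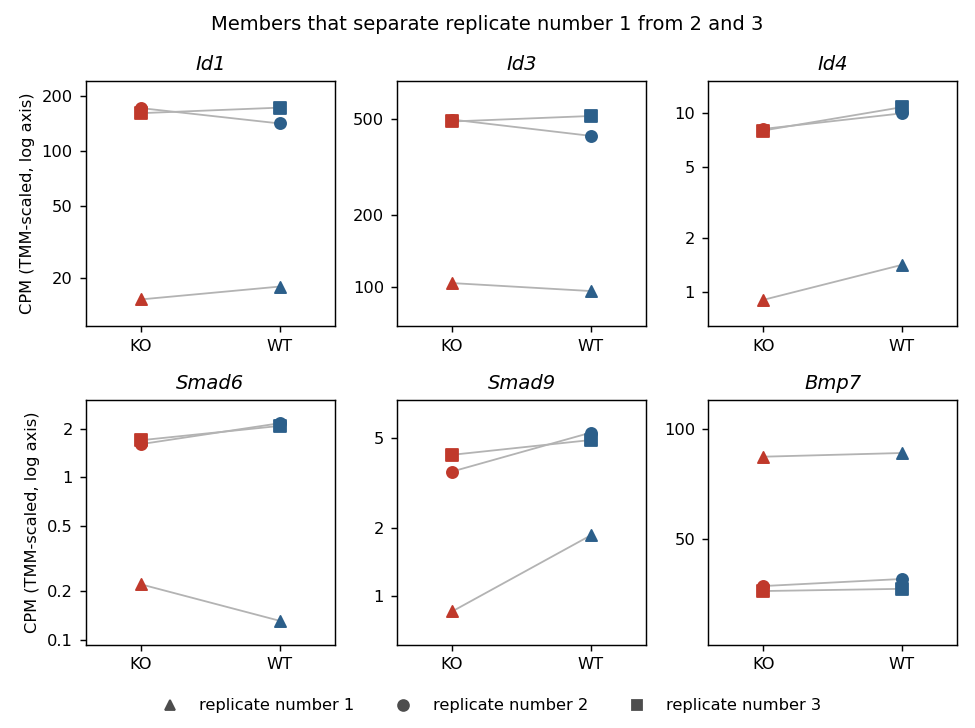
CPM (TMM-scaled, log axis) of 6 members in each library, with KO (red) at the left and WT (blue) at the right of each panel and a line joining libraries of the same number. Number 1 (triangles) lies below numbers 2 and 3 for Id1, Id3, Id4, Smad6 and Smad9 and above them for Bmp7, in both genotypes.

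Of the 37 tested members, 20 were lower and 7 higher in number 1 than in numbers 2 and 3. These are 54.1% and 18.9% of the tested members, against 29.4% and 28.2% of all tested genes called lower and higher in the same fit. By library values alone, both number 1 libraries lay above the other 4 for 7 of the 37 members and below them for 19. Over all 13683 tested genes this held for 4228 (30.9%) and 4343 (31.7%). The members' median log2 difference was −0.46, against −0.02 over all tested genes. By role, all 4 Id genes, all 3 inhibitors and all 3 latency and processing genes were lower. The 7 higher members were Bmp7 (1.19 ± 0.0594), Tgfbr3 (1.32 ± 0.217), Tgfbr2 (0.87 ± 0.0638), Smad3 (0.61 ± 0.0700), Smad5 (0.36 ± 0.0605), Smad2 (0.31 ± 0.0681) and Acvr1 (0.20 ± 0.0722; log2, SE). Among the 20 lower members the difference was −0.62 ± 0.0686 for Bmpr1a and −1.28 ± 0.150 for Chrd (log2, SE). The stem cell marker Hes5, a Notch target, had 23.4, 312 and 290 CPM in KO 1, 2 and 3, against 18.3, 232 and 255 CPM in WT 1, 2 and 3. The astrocyte marker Gfap had 3.70, 64.0 and 63.3 CPM in KO, against 5.33, 149 and 159 CPM in WT. Hes5 and Gfap had the largest differences of their lists, at −3.71 ± 0.0777 and −4.52 ± 0.161 (log2, SE). Of 10 stem cell markers, 7 were lower and 1 (Nes) was higher in number 1. Nes had 1748, 758 and 807 CPM in KO 1, 2 and 3, against 1738, 687 and 712 CPM in WT 1, 2 and 3. The summed CPM of the 10 stem cell markers ran from 9848 to 9867 in number 1 and from 10800 to 11561 in numbers 2 and 3. Of 5 tested astrocyte markers, 3 were lower and 0 higher in number 1, with summed CPM from 62.6 to 162 in number 1 and from 154 to 408 in numbers 2 and 3. Their part in the difference was not tested.

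**Figure D5:**
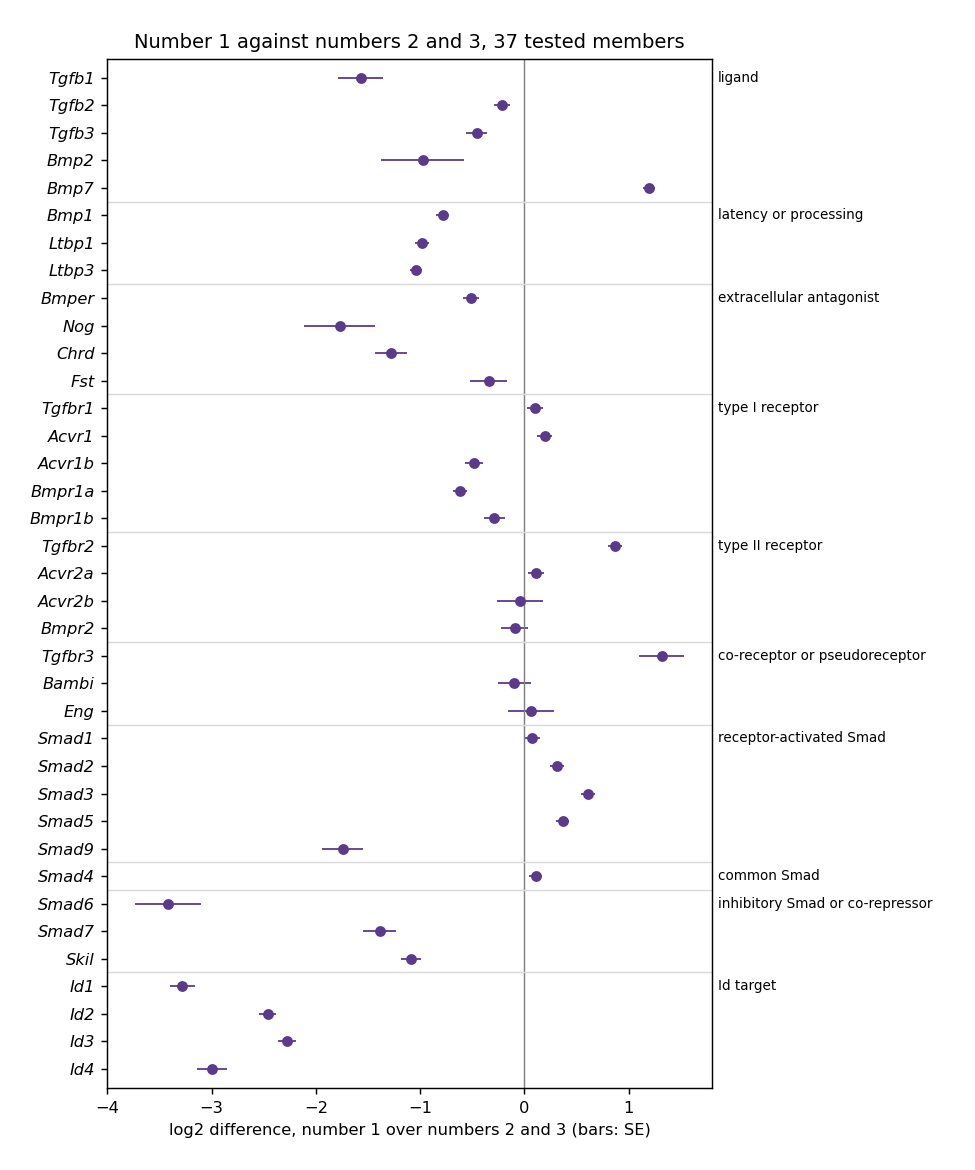
Log2 difference of number 1 over numbers 2 and 3 for the 37 tested members, by role, with SE bars, fitted together with the genotype. The Id genes and Smad6 lie between −2.28 and −3.42, and Bmp7 and Tgfbr3 lie at 1.19 and 1.32.

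The promoter set used here held 28 of the 41 members, and Id1 was not among them. Promoters of 4 genes that moved together with the replicate number are shown, from RefSeq (GRCm38.p6), with the same window around each gene's RefSeq start. For Id2 and Id3 that start lies inside the GENCODE gene, and for Id4 it lies before the GENCODE start. They are Id2 (chr12:25096043-25096342, minus strand), Id3 (chr4:136143572-136143871, plus strand), Id4 (chr13:48260866-48261165, plus strand) and Smad6 (chr9:64022010-64022309, minus strand). Capitals mark 3 motifs searched on both strands: GGCGCC, a GC-rich element bound by BMP Smads, GTCTAGAC, the palindromic Smad-binding element, and CAGAC with its reverse complement GTCTG. The first 2 read the same on both strands, and none of the marked matches overlap.
Id2: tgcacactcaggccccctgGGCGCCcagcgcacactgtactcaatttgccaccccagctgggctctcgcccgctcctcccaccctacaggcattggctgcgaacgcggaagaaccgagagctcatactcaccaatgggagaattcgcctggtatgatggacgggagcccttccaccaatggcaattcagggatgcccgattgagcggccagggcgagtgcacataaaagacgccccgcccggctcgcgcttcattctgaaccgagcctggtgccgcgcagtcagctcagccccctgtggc
Id3: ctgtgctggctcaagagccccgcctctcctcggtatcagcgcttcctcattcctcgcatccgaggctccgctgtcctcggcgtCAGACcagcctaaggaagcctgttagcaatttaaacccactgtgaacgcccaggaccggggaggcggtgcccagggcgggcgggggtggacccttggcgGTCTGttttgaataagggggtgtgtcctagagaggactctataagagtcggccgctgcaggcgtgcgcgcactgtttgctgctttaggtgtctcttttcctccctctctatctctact
Id4: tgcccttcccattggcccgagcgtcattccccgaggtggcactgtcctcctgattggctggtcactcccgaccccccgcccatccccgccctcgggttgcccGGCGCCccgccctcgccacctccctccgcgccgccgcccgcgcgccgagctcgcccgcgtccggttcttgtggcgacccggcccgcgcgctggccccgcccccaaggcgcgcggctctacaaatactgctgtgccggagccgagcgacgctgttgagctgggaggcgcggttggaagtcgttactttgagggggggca
Smad6: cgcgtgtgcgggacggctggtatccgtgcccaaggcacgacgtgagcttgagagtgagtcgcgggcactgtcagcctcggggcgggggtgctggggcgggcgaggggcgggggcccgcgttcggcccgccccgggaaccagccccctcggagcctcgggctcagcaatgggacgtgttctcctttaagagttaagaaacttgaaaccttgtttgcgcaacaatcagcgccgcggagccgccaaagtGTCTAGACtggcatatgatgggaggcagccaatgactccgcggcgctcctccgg

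The Id2 and Id4 windows each held 1 GGCGCC, which 11.9% of all 32851 promoter windows held. The Id3 window held 2 matches of CAGAC or GTCTG. The Smad6 window held 1 GTCTAGAC, which 0.213% of all windows held. A match describes letters and not a bound site. GC content was 63.3% for Id2, 60.0% for Id3, 73.3% for Id4, 66.3% for Smad6 and 59.0% for Tgfbr2.

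Beyond the 41 members, 90 other genes of the pathway were listed, and 56 had enough counts to be tested. With the block, 2 rose (Nedd4l and Klf10) and 5 fell (Htra1, Cdkn2b, Inhbb, Pcsk6 and Tob1). These were 3.57% and 8.93% of the 56 genes, near the 3.33% and 6.46% of all tested genes called higher and lower. Without the block edgeR called 0. In that fit 7 of the 56 had an unadjusted p under 0.05, against 795 of the 13683 tested genes (5.81%). DESeq2 without the block called 1 lower, against 198 of the 13683 tested genes. The median log2 fold change of the 56 genes was 0.04 with the block. The Smad-induced cyclin-dependent kinase inhibitor gene Cdkn2b had 11.5, 9.83 and 8.06 CPM in KO 1, 2 and 3, against 17.7, 19.1 and 21.3 CPM in WT 1, 2 and 3. The groups did not overlap, and Cdkn2b fell by 0.99 ± 0.135 on the log2 scale (SE, adjusted p = 0.00145, edgeR with the block, and 0.177 without it). Htra1, a secreted protease reported to antagonise TGF-beta ligands, had 7.20, 3.80 and 4.04 CPM in KO, against 19.9, 8.43 and 8.50 CPM in WT. Again the groups did not overlap, and Htra1 fell by 1.25 ± 0.121 on the log2 scale (SE, adjusted p = 0.000208, edgeR with the block).

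The activin subunit gene Inhbb had 11.8, 15.0 and 14.9 CPM in KO, against 15.7, 19.7 and 19.1 CPM in WT. Inhbb fell by 0.39 ± 0.0859 on the log2 scale, Pcsk6, a proprotein convertase gene, by 0.45 ± 0.111 and the antiproliferative gene Tob1 by 0.26 ± 0.0662 (SE, adjusted p from 0.0193 to 0.0332, edgeR with the block). Klf10, a TGF-beta-inducible transcription factor gene, had 112, 129 and 129 CPM in KO, against 103, 102 and 101 CPM in WT, without overlap. Klf10 rose by 0.27 ± 0.0684 and the ubiquitin ligase gene Nedd4l by 0.36 ± 0.0934 on the log2 scale (SE, adjusted p = 0.0374 and 0.0403, edgeR with the block).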

How the data were processed

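Per the labels, RNA-seq libraries were made from fragmented mRNA. The authors deposited raw whole-number counts for each gene symbol in 6 libraries. FastQC, cutadapt, Trim Galore, Bowtie2, RSEM and mm10 are named by the submitters' processing notes; versions, annotation, strand setting and any rounding are not stated. Groups and numbers came from the titles.

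The counts were tested as deposited in R 4.3.3 with edgeR 4.0.16 (filterByExpr, TMM, robust quasi-likelihood fit, two-sided), with Benjamini-Hochberg adjustment over 13683 genes; DESeq2 1.42.0 was an alternative. An SE is the fold change (log2) over the root of F. The test was also run on simulated data. The result of that run is not given here, so no conclusion about these libraries is drawn from it. Depth ran from 33413444 to 46890314 counts; floors (3 counts) cover counting error only. Lengths are unions of GENCODE vM21 exons on GRCm38, the assembly mm10 names; 95.2% of symbols matched 1 gene. Coordinates are 1-based.

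The labels do not pair the replicate numbers. Deviations from the group means correlated across genes at 0.854, 0.604 and 0.58 for same-numbered libraries. All passed the limit of 0.1, and the numbers were treated as pairs. That limit could not decide how numbers 2 and 3 match. Deviations within a group cancel, so with number 1 apart in both groups, numbers 2 and 3 correlate under either match. KO 3 with WT 2 (0.633) and KO 2 with WT 3 (0.578) correlated as highly, so numbers 2 and 3 are not told apart. A pair in the results thus means the same number in the titles. With number 1 against numbers 2 and 3 as the block, which needs no such match, the same members were called as with the replicate block. Separate cultures or embryos are not stated, so p-values cover the spread between these libraries alone, which may be technical.

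Members, lists and alternatives were chosen with earlier results of these data known. Named in full were Phf2, members called with or without the block, all Id genes and inhibitory Smads, the member highest per length in each role, and called genes of the other list. Of the last, Pcsk6, Tob1 and Nedd4l are given by fold change alone. Other members are named by role. Outside this rule, library values are also given for other genes, such as Tgfb2, Acvr2a, Smad9, Atoh8 and some markers.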

Additional observations from a re-analysis of the deposited data

How the results depend on the processing

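Without a block, members called stayed at 0 higher and 0 lower when any 1 library was left out, with another scaling or filter, in DESeq2 and with KO 2 and KO 3 summed, but not with numbers 2 and 3 alone. The paired analysis, with the replicate number as a block, changed 6 of the 37 member calls. Members called higher and lower were 2 and 4 with the replicate block, 2 and 4 with number 1 as the block, 2 and 2 in DESeq2 with the block, 2 and 5 with upper-quartile scaling and the block, 1 and 2, 2 and 3, and 2 and 3 with the block and without numbers 1, 2 and 3 of both groups, 1 and 1 with numbers 2 and 3 alone, and 1 and 2 with KO 2 and KO 3 summed and number 1 as the block. Over all tested genes, 4 were called higher and 4 lower without the block, against 456 and 884 with the replicate block, 510 and 935 with number 1 as the block, 64 and 198 in DESeq2 without the block, 513 and 742 in DESeq2 with it, 2 and 4 with upper-quartile scaling, and 327 and 983 with that scaling and the block. With the block and without number 1, 2 or 3 of both groups, the counts were 359 and 678, 510 and 738, and 569 and 887. Numbers 2 and 3 alone gave 251 and 492. KO 2 and KO 3 summed gave 158 and 530 with number 1 as the block, and 0 and 0 without it (edgeR). Leaving out 1 library without a block gave 0 to 7 higher and 0 to 14 lower, and only the fit without WT 1 gave any call. The cause of these differences was not tested.

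Members that turned direction had no call in the unblocked fit or in the alternative that turned them. With the replicate block Id1 was −0.004 (log2), and it was −0.008 with number 1 as the block, −0.035 with upper-quartile scaling and the block, −0.158 with the block and without number 2, −0.035 with KO 2 and KO 3 summed and number 1 as the block, and −0.279 with them summed and no block. Summing them without a block also turned Id3 (−0.21), Bmp7 (0.164) and Bmpr1a (−0.003). With the block and without number 1, Acvr2b was 0.037, and it was 0.15 without number 2 and 0.02 with numbers 2 and 3 alone. Without number 3 and with the block, Bmpr2 was −0.03, Bmper 0.014 and Smad1 −0.003, and without number 2 Smad1 was −0.009. Ltbp1 was 0.004 in DESeq2 with the block, 0.024 and 0.007 with the block and without numbers 2 and 3, and 0.008 in the summed fit with number 1 as the block; Ltbp3 was 0.003, 0.025, 0.009 and 0.006 in the same fits.

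With 1 library left out and no block, the log2 fold change ranged from −0.276 to 0.066 for Acvr2b, −0.358 to 0.068 for Bmp1, −0.555 to 0.489 for Bmp7, −0.228 to 0.063 for Bmper, −0.08 to 0.268 for Bmpr1a, −0.583 to 0.038 for Chrd, −0.431 to 0.589 for Id1, −0.366 to 0.515 for Id3 and −0.865 to 0.129 for Id4. It ranged from −0.283 to 0.228 for Ltbp1, −0.297 to 0.237 for Ltbp3, −0.516 to 0.051 for Skil, −0.009 to 0.113 for Smad1, −0.295 to 0.182 for Smad3, −0.851 to 0.184 for Smad6, −0.03 to 0.236 for Tgfb3 and −1.123 to 0.074 for Tgfbr3. Low counts limit Nog, Eng, Bmp2 and Smad6, and a minimum mean of 2 CPM left 31 members to test.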
